A study of Mus musculus with 3 samples.

Results

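Gliosis is the response of retinal glia to injured or dying neurons. The 8 genes described here are linked to it in mouse retina: Gfap, Stat3, Serpina3n, Cebpd, Edn2, Fgf2, Ednrb and Bcl3. These genes were read in neural retina of Rp1 knockout (Rp1-/-) mice at postnatal day 10. Every probe set whose only symbol in the platform annotation was one of these 8 was included, which gave 10 probe sets of 12422 on the array, 2 each for Gfap and Stat3 and 1 for each other gene. The 8 genes were among 8251 genes with a probe set of a single symbol.

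All 3 arrays, of the Affymetrix U74Av2 type, belonged to this 1 group. Each was hybridised with total RNA pooled from neural retinas of 3 to 4 Rp1-/- mice of a mixed 129/SvEv and C57BL/6 background, collected in the early afternoon. No other genotype was analysed here, so no difference between mutant and normal retina could be tested, and the comparisons are between pools 1, 2 and 3 of mutant retina. The descriptions of all 3 arrays give Rp1 knockout, but the title of the pool 1 array lacks the rp1 held by the other titles. Whether any animals contributed to more than 1 pool is not stated in the labels. The p-values therefore measure the spread between these 3 RNA samples only. Rp1 itself was not analysed here, so its loss was not checked from these arrays.

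In the retina, the filaments of Müller glia and astrocytes carry the protein encoded by Gfap, which accumulates when photoreceptors are damaged. Cytokines of the leukaemia inhibitory factor family, made partly by Müller glia, act through the shared receptor gp130 and the JAK kinases on the transcription factor STAT3, and raise glial genes of this kind. Stressed photoreceptors release endothelin-2, which reaches endothelin receptor B on Müller glia, and fibroblast growth factor 2 supports photoreceptor survival.

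Gfap and Bcl3 each held a match to a binding motif near their annotated start, and Serpina3n is printed because it varied most between pools. The stretches come from RefSeq promoter windows of build GRCm38.p6, which run from 250 bases before to 50 bases after a gene's start and were found for 7 of the 8 genes. Capitals mark the motif match, and all stretches are written 5′ to 3′ on the gene's strand. The Gfap stretch lies at chr11:102897194-102897302 on the minus strand, the Bcl3 stretch at chr7:19822744-19822853 on the minus strand and the Serpina3n stretch at chr12:104406558-104406707 on the plus strand.
Gfap: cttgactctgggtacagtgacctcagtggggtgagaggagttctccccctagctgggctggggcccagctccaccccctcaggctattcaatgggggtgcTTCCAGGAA
Bcl3: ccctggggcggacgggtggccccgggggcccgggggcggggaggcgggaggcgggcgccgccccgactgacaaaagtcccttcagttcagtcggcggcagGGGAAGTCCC
Serpina3n: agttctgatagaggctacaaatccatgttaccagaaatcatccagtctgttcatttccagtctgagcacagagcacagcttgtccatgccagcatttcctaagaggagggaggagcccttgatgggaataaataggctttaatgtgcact

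The STAT motif TTCNNNGAA, searched on both strands, matched the Gfap window alone among the 7 genes, with its first 2 bases upstream of the annotated start. It was present in 8.30% of 32851 promoter windows. The NF-kappaB motif GGGRNWYYCC (R is A or G, W is A or T, Y is C or T) was searched on both strands too. It matched the Bcl3 window alone, on the strand complementary to the one printed, and was present in 4.51% of windows. On the gene's strand the match begins at the 3rd transcribed base. No window of the 7 genes held the C/EBP motif TTGCNNAA (10.8% of windows) or the AP-1 motif TGANTCA (7.81%). The Gfap match shares no base with a match to another of these motifs, and neither does the Bcl3 match. These are matches of letters in one window per gene and say nothing about binding.

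The arrays were alike in general signal, with medians of 233 to 234 intensity units. The background floor of each array was set at the 90th percentile of 19 bacterial and yeast control probe sets, at 100.5, 124.8 and 120.4 for pools 1, 2 and 3. A probe set is called measured where its mean signal exceeded the mean floor of 115 units. All 6 rod genes used to check the tissue (Sag, Gnat1, Pde6g, Pdc, Rcvrn and Crx) were above the floor on every array. Lens genes differed between the pools, and the summed signal of all 11 listed was 94913.7, 25459.7 and 203614.4 in pools 1, 2 and 3.

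Transcripts of 4 of the 8 genes were measured: Gfap, Stat3, Serpina3n and Cebpd. Each of these 4 was above the floor on every array by at least 1 probe set. The other 4, Edn2, Fgf2, Ednrb and Bcl3, were under the floor on every array. By probe set, 5 of 10 were measured, against 67.0% of all gene probe sets. The same 5 were above the floor on every array, against 57.9% of all, and 4 of 10 were under it on every array, against 23.3% of all. Signals were compared between pools and not between probe sets, which differ in how well they bind.

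**Figure D1:**
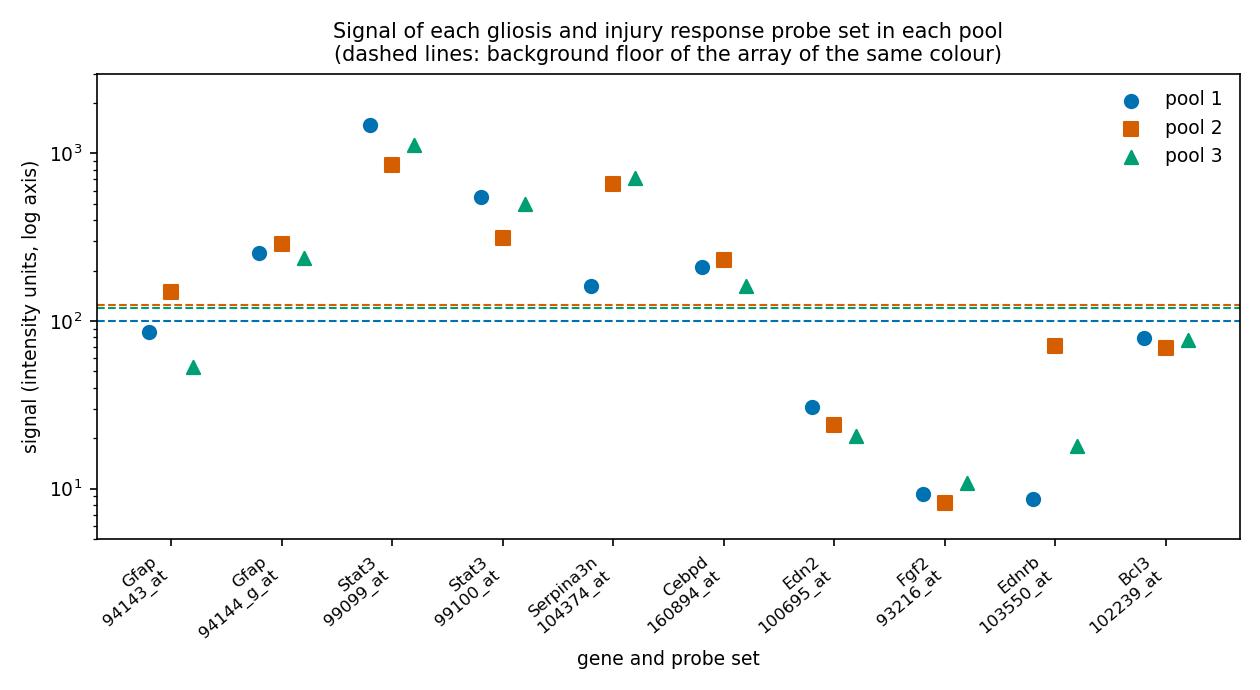
Signal in intensity units on a log axis (vertical) of the 10 probe sets of the 8 genes (horizontal) in pools 1, 2 and 3, with each array's floor as a dashed line of the same colour. Serpina3n lies at 162 in pool 1 and at 658.6 and 709.6 in pools 2 and 3, and the points of Edn2, Fgf2, Ednrb and Bcl3 all lie under the floors.

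Gfap, the filament gene that marks reactive glia, was present at a low and even signal. The probe set 94144_g_at gave 253.6, 287.2 and 237.7 in pools 1, 2 and 3, a mean of 259.5 ± 25.3 (SD, n = 3). Pool 2 was highest and pool 3 lowest, with 1.21-fold between them, and each array was 1.97 to 2.52 times its floor. The SD on the log2 scale was 0.14, smaller than the 0.39 of the trend fitted over all measured probe sets at that signal (limma, adjusted p = 0.996).

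The second Gfap probe set, 94143_at, is drawn from the same GenBank sequence as the first. It gave 86.3, 148.3 and 53.2 in pools 1, 2 and 3. Only pool 2 exceeded its floor, the set was not measured by the rule, and pools 1 and 3 have no order in it.

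Other glial genes are set beside Gfap as background. Of the Müller glia markers, Rlbp1 (a retinoid-binding protein of the visual cycle) gave 2014.4, 2832 and 3172.5, and Car2 (carbonic anhydrase) 7104.6, 7816.2 and 7687.8, in pools 1, 2 and 3. Both were lowest in pool 1, whereas Apoe and Dkk3 were highest there and the probe sets of Glul (glutamine synthetase) disagreed, at 876, 1069.6 and 684.2 and at 482.2, 422.7 and 795.4. Vim, the other filament gene of Müller glia, was under the floor on every array at 93.3, 93.5 and 76.6. Pax2, a transcription factor of retinal and optic nerve astrocytes, gave 256.2, 260.9 and 275.6. The summed signal of the 4 measured astrocyte markers ranged from 2233.3 to 2439.8 over the pools, that of the 6 measured Müller glia markers from 18217.5 to 20138.3. In pooled tissue, fewer cells of a type and less RNA per cell cannot be told apart.

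Stat3, the transcription factor downstream of gp130, was highest in pool 1 and lowest in pool 2 by both of its probe sets. The set 99099_at gave 1478.3, 857.1 and 1122.3 in pools 1, 2 and 3, a mean of 1152.6 ± 311.7 (SD, n = 3). The set 99100_at, from a different GenBank sequence, gave 553.5, 311.7 and 496.6, a mean of 454 ± 126 (SD, n = 3). Pool 1 exceeded pool 2 by 1.72-fold in the first set and 1.78-fold in the second.

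The spread of Stat3 was above the fitted trend without passing the test. Its SDs on the log2 scale were 0.39 and 0.44, against trend values of 0.26 and 0.31 (limma, adjusted p = 0.99 for both sets). The unadjusted p-values of the same limma fit were 0.136 and 0.175. Of the Müller glia markers, Apoe (6567.3, 4017.7 and 5037.6 in pools 1, 2 and 3) and Dkk3 (3511.3, 2293.8 and 2974.6) were in the same order as Stat3. The other measured Müller glia markers, Rlbp1, Car2, Glul and Aqp4, were not. The summed signals of the 6 measured Müller glia markers (20138.3, 18217.5 and 19676.9) had the order of Stat3, over a narrower range. The sum of the 2 measured oligodendrocyte markers did too (578.7, 433.6 and 513.3). Neither of these 2 had it alone, with Mbp at 425.9, 302.1 and 268.1 and Mag at 152.8, 131.5 and 245.2. All 11 lens genes were lowest in pool 2 and highest in pool 3 by their probe sets of highest mean signal. Another measured set of Crybb2 was lowest in pool 1, and another of Cryge was highest in pool 2. The 3 measured of 5 pigment markers summed to 1026.7, 945.5 and 1788.3, with Pmel lowest in pool 1 at 319.7, 327.7 and 908. The microglia and blood sums were in other orders than Stat3. With 3 arrays a shared order is a description only, and the part of these cells in the Stat3 values was not tested.

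Serpina3n, a secreted inhibitor of serine proteases of the acute-phase response and a marker of reactive astrocytes, differed most between pools. Its 1 probe set gave 162, 658.6 and 709.6 in pools 1, 2 and 3, a mean of 510.1 ± 302.5 (SD, n = 3). Pool 1 was low, at 1.61 times its floor, and pools 2 and 3 were alike at 5.28 and 5.90 times theirs. Pool 2 exceeded pool 1 by 4.07-fold and pool 3 exceeded pool 1 by 4.38-fold, while pools 2 and 3 differed by 1.08-fold.

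The SD of Serpina3n on the log2 scale was 1.20, which is 3.80 times the trend value of 0.32. Its spread exceeded that of 99.6% of all measured probe sets. Over all measured probe sets it missed the threshold of 0.05 (limma, adjusted p = 0.163, unadjusted p = 0.000488). Over 11 other settings of the analysis its adjusted p (limma) ran from 0.00141, with dim probe sets kept in, to 0.995, without pool 1, and it passed in the first of these alone. Without pool 1 the range fell to 1.08-fold.

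Several other signals were low in pool 1 in the same way. Xist, the RNA of the inactive X chromosome in female cells, was under the floor in pool 1 at 69.5, against 1384.4 and 1543.7 in pools 2 and 3 (limma, adjusted p = 0.00063). Eif2s3y, a Y-linked gene, ran the other way at 546.4, 428.8 and 247. All 3 measured blood markers were highest in pool 1, summing to 20541.0, 12671.7 and 10545.7. Whether the sex of the mice or the tissue in the pools had a part in the Serpina3n values was not tested. The microglia and macrophage markers, of which 8 of 9 were measured, summed to 3022.4, 2878.6 and 3090.9. Of the 6 measured Müller glia markers, 2 were highest in pool 1 (Apoe and Dkk3), while Rlbp1 and Car2 were lowest there, as Serpina3n was. Aqp4 (64.7, 188.2 and 120.2) was above the floor in pool 2 alone, so its pools 1 and 3 have no order. The astrocyte sum was lowest in pool 1, at 2233.3 against 2439.8 and 2424.8, with 4 of 5 markers measured and S100b not. These markers disagreed, as Pax2 was lowest in pool 1, Pdgfra (986.1, 788 and 1173.4) in pool 2 and Gja1 (926.3, 1202.7 and 855.6) in pool 3. A second Gja1 set was lowest in pool 1, at 60.3, 129.2 and 184.7.

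**Figure D2:**
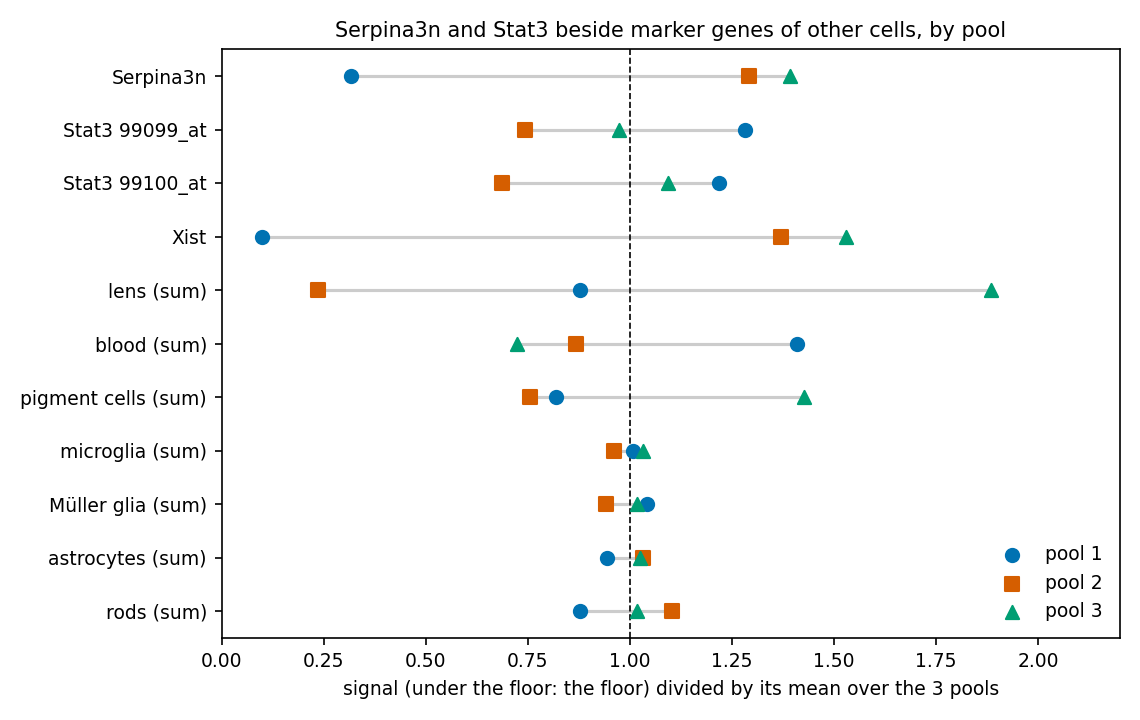
Signal divided by its mean over the 3 pools (horizontal), with signals under the floor set to it, for Serpina3n, both Stat3 probe sets, Xist and the summed signals of marker lists (vertical). Serpina3n and Xist lie low in pool 1 and high in pools 2 and 3, while the microglia, Müller glia and astrocyte sums lie close to the dashed line at their mean.

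The named genes closest to Serpina3n in profile were found by the root mean square difference of log2 signals, each centred on its mean over the 3 arrays. They were Nr2c2ap (0.04), Gm7775 (0.10), Sprr2k (0.12), B2m (0.16) and Snrp1c-ps2 (0.16). Nr2c2ap, Sprr2k and B2m were under the floor in pool 1, so their distances rest on the floor's value there. Gm7775 was barely above it in pool 1, at 101.2 against a floor of 100.5. Another Nr2c2ap probe set gave 282.2, 253.8 and 357.5, without the low pool 1. Snrp1c-ps2 gave 288.5, 1549.9 and 1483.2 and was the 1 of these 5 that passed the test of spread (limma, adjusted p = 0.013). With 3 arrays such likeness is a description only. Among the 8327 measured probe sets, 7 were at least 4-fold lower in pool 1 than in each other pool, Serpina3n and Xist among them. Pool 2 was the low one in 5 probe sets and pool 3 in 0.

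Cebpd, a C/EBP transcription factor of the acute-phase response, was measured at a low signal. It gave 211.6, 232.3 and 162.3 in pools 1, 2 and 3, a mean of 202.1 ± 36.0 (SD, n = 3). Pool 2 was highest and pool 3 lowest, 1.43-fold apart, and pool 3 was only 1.35 times its floor. The SD of 0.27 on the log2 scale lay under the trend value of 0.44 (limma, adjusted p = 0.99).

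**Figure D3:**
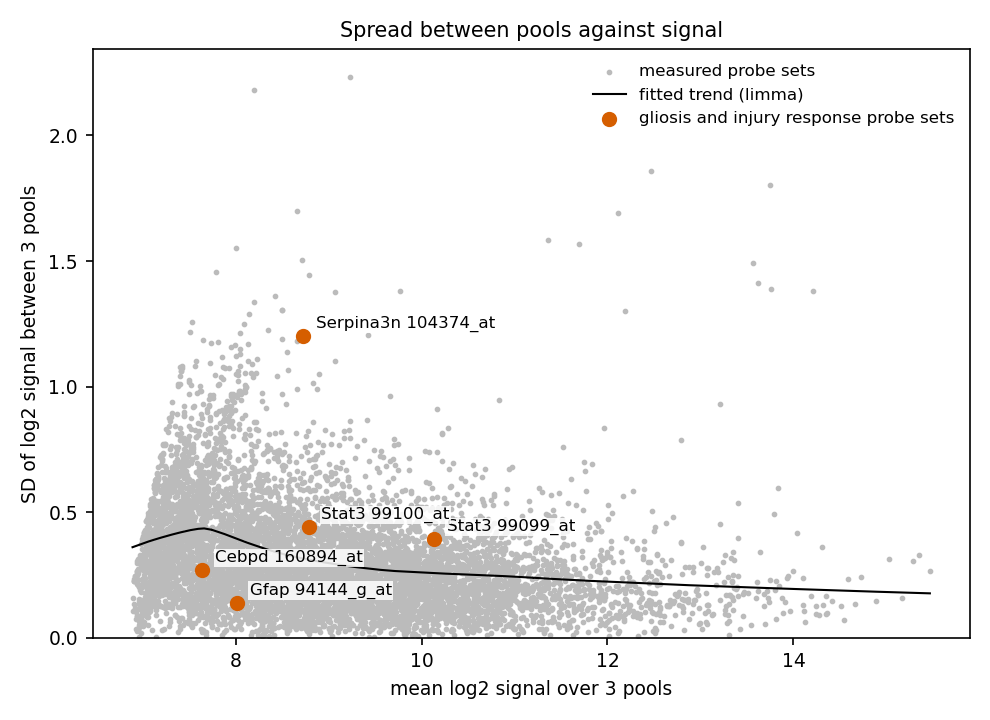
SD of log2 signal between the 3 pools (vertical) against mean log2 signal (horizontal) for the 8327 measured probe sets in grey, the limma trend as a line and the 5 measured probe sets of the gliosis genes in orange. Serpina3n stands at an SD of 1.20, Stat3 just above the line at 0.39 and 0.44, and Cebpd and Gfap under it at 0.27 and 0.14.

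The ligands Edn2 and Fgf2 were not distinguishable from the controls. Edn2, the endothelin of stressed photoreceptors, gave 30.8, 24.1 and 20.5 in pools 1, 2 and 3, and 11 to 13 of the 19 control probe sets were brighter on the same array. Fgf2 gave 9.3, 8.2 and 10.8, and 16 or 17 of the 19 controls were brighter. At this sensitivity neither transcript was detectable, and a signal under the floor does not show that a transcript is absent.

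The receptor gene Ednrb gave 8.7, 70.7 and 17.9 in pools 1, 2 and 3. Pool 2 was the highest, still at 0.57 of its floor and with 8 of 19 controls brighter, so no fold is given. Bcl3, an atypical IkB protein that joins NF-kappaB p50 and p52 in the nucleus, gave 78.8, 69.1 and 76.9, from 0.55 to 0.78 of the floors.

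Of the 5 measured probe sets, 0 passed the test of spread between pools (limma), against 0.216% of all 8327 measured probe sets, and 1, Serpina3n, had an unadjusted p under 0.05, against 5.34% of all. The same 1 ranged more than 2-fold between its highest and lowest pool, against 13.2% of all. The median SD on the log2 scale was 0.39 for the 5 and 0.27 for all measured probe sets.

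The pathways around these genes were read from 8 further lists, each gene read from its probe set of highest mean signal. Of 93 listed genes with a probe set, 61 were measured and 51 were above the floor on every array. Of all gene probe sets, 67.0% were measured and 57.9% were above the floor on every array. None of the 61 passed the test of spread, against 0.216% of all measured probe sets. Of the 61, 3 had an unadjusted p under 0.05 (limma), against 5.34% of all, and 6 ranged over 2-fold, against 13.2%. The median SD of the 61 on the log2 scale was 0.26, against 0.27 for all measured probe sets.

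In the gp130 and JAK-STAT list, 17 of 24 genes were measured and 0 passed. The receptor subunit Lifr gave 976.7, 1092 and 907.3 in pools 1, 2 and 3, the kinase Jak1 1014.5, 853 and 803.3, and Pias3, an inhibitor of STAT3, 2704.7, 3340.9 and 2604.5. The shared subunit Il6st (gp130) gave 399.9, 347 and 336.1. Socs3, the feedback inhibitor that STAT3 induces, was above the floor in pools 2 and 3 alone, at 95.5, 144.1 and 132.1. A second Socs3 probe set was under the floor on every array, at 24.8, 71.7 and 17.2.

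The range exceeded 2-fold for 3 genes of this list, each under the floor in pool 3. The kinase Tyk2 gave 311.5, 347 and 85.7, at least 2.88-fold between pool 2 and pool 3 (limma, adjusted p = 0.86). Il6ra (the interleukin 6 receptor) gave 274.2, 127.7 and 40.1, and Socs1 (a feedback inhibitor) 284.5, 144.3 and 118.4 (limma, adjusted p = 0.99 for both). Il6, Il11, Osmr, Stat4, Stat6, Ptpn6 and Ptpn11 were not measured, and the ligands Lif, Cntf, Clcf1 and Osm were not analysed here.

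Of the endothelin system, 1 of 4 genes was measured. Ece1, the protease that releases active endothelin, gave 851.3, 536.7 and 699.5, with 1.59-fold between pools 1 and 2 (limma, adjusted p = 0.99). Edn3 was under the floor on every array at 45.3, 49.5 and 57.2. Edn1 gave 43.5, 42.4 and 214, above the floor in pool 3 alone, and its second probe set was under the floor on every array at 95.9, 114.2 and 49.4. Thus Edn1 and Edn3, like Edn2 and Ednrb, were not measured.

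In the fibroblast growth factor list, 11 of 20 genes were measured and 0 passed. The coreceptor Sdc4 gave 772.7, 754.2 and 1046.2, the feedback phosphatase Dusp6 550.3, 591.8 and 551.2, and the coreceptor Sdc2 384.7, 664.8 and 465.6. The receptor Fgfr2 gave 369.4, 116.8 and 313.2, at least 2.96-fold between pools 1 and 2 (limma, adjusted p = 0.83, unadjusted p = 0.037), and was under the floor in pool 2. A second Fgfr2 probe set was likewise lowest in pool 2, at 277, 48.3 and 349.9. Lens genes, by their probe sets of highest mean signal, were lowest in pool 2 as well, and their part in the Fgfr2 values was not tested. Fgfr1 gave 318.7, 217.2 and 146.3, with 2.18-fold between pools 1 and 3 (limma, adjusted p = 0.99).

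The transcription factor families of Bcl3 and Cebpd held no measured gene that passed the test or ranged over 2-fold. Of the NF-kappaB subunits and inhibitors, 7 of 9 were measured. Rela (p65) gave 1457.3, 1166.2 and 1585.4, Nfkbia (IkB alpha) 731.3, 665.9 and 785.2, and Ikbkg (NEMO, of the IkB kinase) 669.7, 544.4 and 358.7. Of the C/EBP family, 2 of 4 were measured, with Ddit3 (CHOP) at 450.3, 528.8 and 417.2 and Cebpa at 318.6, 322.1 and 421.2. Cebpb was under the floor on every array at 69.7, 84.9 and 86.2.

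Of the listed relatives of Serpina3n, Serpina1b and Serpina1c were analysed here, and no other Serpina3 gene was. They gave 196.3, 162.9 and 195.2, and 294.9, 219.1 and 330.2, without the low pool 1 of Serpina3n. The Serpina3 genes are a cluster of close copies in the mouse, so the Serpina3n signal may include related transcripts.

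Of the other intermediate filament genes, 9 of 11 were measured. The neuronal filament genes Ina, Nefl and Nefh gave 2873.6, 2331.5 and 2077, then 525.9, 692.9 and 712.3, then 576.2, 610.5 and 525 in pools 1, 2 and 3. None of the 9 ranged over 2-fold. Their median SD on the log2 scale was 0.24.

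Of 19 other injury-response genes, 12 were measured and 0 passed. Hmox1 (haem oxygenase, of the oxidative stress response) gave 879.8, 691 and 1038.3, and Cp (ceruloplasmin) 886.4, 867.3 and 709.4. Timp1 (an inhibitor of metalloproteinases) gave 756.9, 686.7 and 958.2. A second Timp1 probe set was under the floor on every array, at 73, 36.5 and 48.2. B2m, the light chain of class I MHC molecules, gave 95.4, 313 and 359 and was the 1 gene of the list over 2-fold. It was under the floor in pool 1 and at least 3.57-fold brighter in pool 3 (limma, adjusted p = 0.74, unadjusted p = 0.017). Ccl2 and Cxcl10, chemokines of inflamed tissue, and Cd44, a surface receptor of reactive glia, were not measured.

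**Figure D4:**
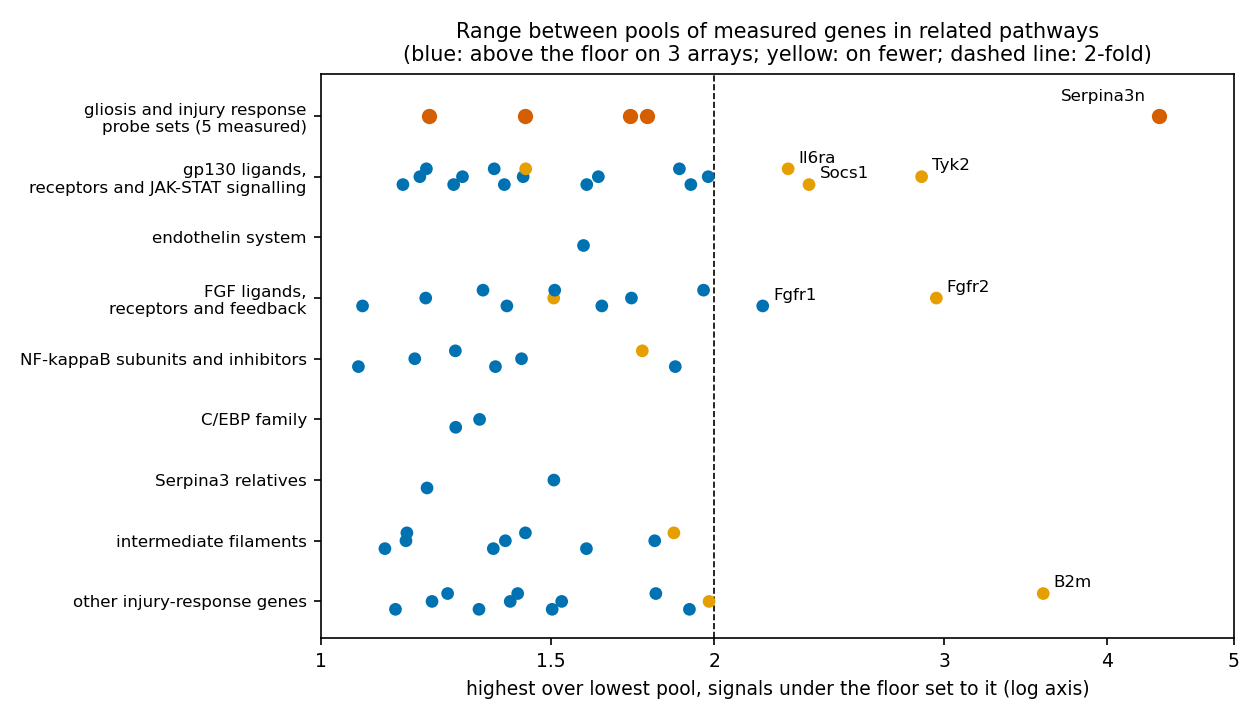
Highest over lowest pool on a log axis (horizontal), signals under the floor set to it, for the measured genes of 8 related lists and the 5 measured probe sets of the gliosis genes (vertical, top row). Serpina3n (4.38) and B2m (3.57) lie farthest right, and Tyk2, Fgfr2, Socs1, Il6ra and Fgfr1 are the other genes past the dashed line at 2-fold.

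Probe sets of the same gene did not all agree on the order of the pools. Among the genes named, the pool of highest signal differed between measured probe sets for Glul, Gja1, Cryge, Lifr, Pias3, Nfkbia, Ina and Fgfr2. It was the same for both measured sets of Il6st, Ikbkg, Nr2c2ap, Pdgfra, Mbp and Crybb2, and for both sets of Stat3. Apoe, Rela, Dusp6, Sdc2, Serpina1c and Timp1, among others, each had another probe set under the floor on every array.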

How the data were processed

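RNA of 3 pools of retina was measured on Affymetrix U74Av2 arrays. Values were taken from the deposited table of linear intensity, 1 for each array and probe set. How the authors computed and scaled them is not given in the sources used here. Means trimmed by 2% at each end were 500.25 to 500.26, so no further scaling was applied. Controls (66 probe sets) were left out of the gene results, and 10833 of 12422 probe sets had 1 symbol, updated by gene identifier (RefSeq, GRCm38.p6).

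Signals under an array's floor were set to it before log2. The 8327 measured probe sets entered an intercept-only limma 3.58.1 fit in R 4.3.3: a robust F distribution with an intensity trend, the tail p of each variance, and Benjamini-Hochberg adjustment over all of them at 0.05. The fit was run on simulated normal values as a check of the code only, which says nothing of its power on these arrays. Python 3.11.15, pandas 2.3.3, numpy 2.4.6 and matplotlib 3.10.9 did the rest. Alternatives changed the floor, scaling, filter and variance model, added 16 before log2, or left out each array.

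Members, lists and tests were chosen with earlier results of these data known. Named genes are all members, the 3 of highest mean signal in each list, all over 2-fold, and 5 nearest profiles to the most variable member. Il6st, Socs3, the genes named as not measured and the single marker genes beside members were added once values had been seen. No depth applies to arrays, and their number limits the precision.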

Additional observations from a re-analysis of the deposited data

How the results depend on the processing

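The number of gliosis genes measured, 4, was 4 or 5 under every floor, scaling and left-out array tried. With the floor at the highest control, 2 rather than 4 genes were above it on every array. Serpina3n was then under it in pool 1 and Cebpd in pool 3, and the range of Serpina3n was 3.39-fold. With no filter on dim probe sets, 1 gene, Serpina3n, passed the test of spread (limma, adjusted p = 0.00141). That setting adds probe sets whose values are all at the floor. In the other 10 settings 0 gliosis genes passed. Over all probe sets, 10 passed with log2(signal + 16), 52 with no filter, 6 with an ordinary fit and 0 without an intensity trend (377 at an unadjusted p under 0.05), against 18 of 8327. The cause was not tested. Without replicate 1, 2 or 3 in turn, between 4 and 40 passed. Adjusted p-values of the Gfap, Cebpd and Stat3 probe sets ran from 0.821 to 0.999 over the 11 settings. No paired analysis was possible because all 3 arrays belong to 1 group. Of the 8 genes, 4 had signals too close to the controls to be followed.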
